A study of Mus musculus with 4 samples.

Results

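Fibronectin (Fn1) and 7 genes of matrix-modulating proteins, Tnc, Thbs1, Thbs2, Sparc, Tgfbi, Smoc1 and Smoc2, were followed in mouse brain tissue after photothrombotic (PT) injury, a focal ischaemic lesion made by light after injection of a photosensitive dye. They were chosen by name, with earlier results of these data known. All 8 were found among the 32285 genes of the spatial count matrices. Visium capture areas carry barcoded spots that each take up messenger RNA from a small patch of tissue, which can hold several cells. RNA molecules were counted as UMIs (unique molecular identifiers). The 4 capture areas held 8 slices, each of its own mouse per the methods. They were 1 uninjured wild-type mouse (rest), 1 wild-type mouse at 2 days post-injury (dpi), 2 wild-type mice at 7 dpi, 2 wild-type mice at 21 dpi, and 2 injured Cthrc1(creER); R26(DTA) mice at 21 dpi, here called deleter mice. The deleter genotype ties an inducible Cre to Cthrc1, a gene of profibrotic myofibroblasts, and lets it switch on diphtheria toxin A. According to the study's methods these mice were set aside because no deletion was detectable. Strain, sex and age were not among the labels. In every slice, levels were taken as UMIs per 10000 in fibrotic spots, defined by at least 5 Col1a1 UMIs per 10000, and in spots with no Col1a1 UMI.

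Fibronectin is a large secreted glycoprotein that cells pull into fibrils through integrins, and it is laid down early when wounds heal. Matricellular proteins such as tenascin-C, the thrombospondins, SPARC and the SMOC proteins are secreted into the same matrix but act mainly on adhesion, proteolysis and growth factor signals rather than as scaffold. In the adult brain fibroblasts are largely kept to the meninges and vessels, and injury brings fibroblasts and macrophages into the lesion, where a collagen-rich scar forms.

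The 8 genes lie on 7 chromosomes of GRCm38 (the mm10 build). On the minus strand, Fn1 spans chr1:71585520-71653200, Tnc chr4:63959785-64047015, Thbs2 chr17:14665500-14694235 and Sparc chr11:55394500-55423183. On the plus strand, Thbs1 spans chr2:118111876-118127133, Tgfbi chr13:56609523-56639562, Smoc1 chr12:81026808-81186414 and Smoc2 chr17:14279506-14404790. Smoc2 and Thbs2 are neighbours, with a gap of 260.7 kb that holds 0 annotated protein-coding genes. On the same strand the annotation places the microRNA gene Mir3067 inside Smoc1. On the opposite strand Apol7d overlaps Fn1, 8030451A03Rik overlaps Tnc, Gm29233 overlaps Thbs1 and 4930474M22Rik overlaps Smoc2.

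Promoter sequences were printed because all members stood higher in the same spots, as shown further on. RefSeq (GRCm38.p6) promoters were found for 4 of the 8 members, namely Tnc, Thbs2, Sparc and Tgfbi. Each line gives the 250 bases before the start, 5′ to 3′ on the gene's strand. Capitals mark matches, on either strand, to a TATA box (TATAAA), an AP-1 site (TGANTCA), a SMAD element (CAGAC), a TEAD element (GGAATG) or a GC box (GGGCGG). No matches overlapped in these windows. The windows are chr4:64046937-64047186 for Tnc (the more downstream of 2 listed starts), chr17:14694263-14694512 for Thbs2, chr11:55420081-55420330 for Sparc, all on the minus strand, and chr13:56609336-56609585 for Tgfbi on the plus strand. RefSeq and GENCODE place the starts differently, so the windows of Tnc, Sparc and Tgfbi lie partly or wholly within the gene spans given before.
Tnc: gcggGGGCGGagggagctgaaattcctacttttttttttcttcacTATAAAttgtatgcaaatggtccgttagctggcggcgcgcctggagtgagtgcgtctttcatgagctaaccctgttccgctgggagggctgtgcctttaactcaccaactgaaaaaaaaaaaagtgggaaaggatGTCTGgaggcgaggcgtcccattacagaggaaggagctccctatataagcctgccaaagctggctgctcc
Thbs2: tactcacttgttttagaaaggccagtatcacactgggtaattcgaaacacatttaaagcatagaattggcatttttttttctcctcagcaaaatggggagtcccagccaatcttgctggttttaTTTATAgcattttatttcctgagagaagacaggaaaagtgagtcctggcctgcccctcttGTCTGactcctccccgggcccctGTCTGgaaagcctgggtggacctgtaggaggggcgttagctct
Sparc: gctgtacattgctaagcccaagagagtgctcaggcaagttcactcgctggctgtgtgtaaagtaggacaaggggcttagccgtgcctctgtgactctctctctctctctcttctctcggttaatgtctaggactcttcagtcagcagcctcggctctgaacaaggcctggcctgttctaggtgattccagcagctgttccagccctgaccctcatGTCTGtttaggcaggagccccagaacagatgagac
Tgfbi: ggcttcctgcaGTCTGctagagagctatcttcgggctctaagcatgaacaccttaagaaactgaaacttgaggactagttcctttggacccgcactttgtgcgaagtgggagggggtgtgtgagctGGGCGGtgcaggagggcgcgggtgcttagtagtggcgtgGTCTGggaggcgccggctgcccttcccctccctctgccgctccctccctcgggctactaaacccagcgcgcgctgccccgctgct
The SMAD element matched in each of the 4 printed windows, with 1 match in Tnc, 2 in Thbs2, 1 in Sparc and 2 in Tgfbi, against 42.2% of all 32851 promoter windows of this length. The window of the other listed Tnc start, which overlaps the printed one, held 0 SMAD matches. The letters TATAAA matched in Tnc and Thbs2, at 205 and 126 bases before the start (12.4% of all windows). Other spellings of a TATA box were not searched. A GC box matched in Tnc and Tgfbi (32.7% of all windows). AP-1 and TEAD letters matched in none of the 4 (6.75% and 12.6% of all windows). A match is a description of the letters and does not show binding.

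Slices held 827 to 1726 spots and 11332780 to 23677298 UMIs. Rest and 2 dpi share a capture area, the labels do not say which slice is which, and the 1017-spot slice was taken as rest from its outline in the study's slice plot. The slice at 2 dpi was the shallowest, with a median of 2633.5 UMIs per spot against 12447 to 16158 in the others. Fibrotic spots numbered 3 at rest, 26 at 2 dpi, 112 and 392 at 7 dpi, 170 and 203 in wild-type mice at 21 dpi, and 193 and 274 in deleter mice. At 2 dpi, 17 of the 26 rested on 1 Col1a1 UMI each, so rest and 2 dpi were described and not tested. Fibrotic spots of slice 1 at 7 dpi had a median of 4923.5 UMIs against 16149 in its Col1a1-free spots, and 68.8% of them lay at the tissue edge, against 18.4% in slice 2. Time and genotype coincide with the capture area, and Xist was read in both slices at 7 dpi while Ddx3y was read in both wild-type slices at 21 dpi. Between the wild-type slices of 7 and 21 dpi, time, area and sex cannot be told apart. The deleter slices, of 1 area and time, held Xist in slice 1 (1033 UMIs, against 6 of Ddx3y) and Ddx3y in slice 2 (1323 UMIs, against 19 of Xist), and their values stand beside the wild-type ones in what follows.

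All 8 genes were higher in fibrotic than in Col1a1-free spots of the same slices. Over the 4 wild-type slices at 7 and 21 dpi, each paired with itself, edgeR called all 8 higher, at fitted ratios of 7.4 (Smoc1) to 32.6 (Thbs1). Calls were common in this comparison, with 62.1% of 14147 tested genes called and 31.2% called higher, so a call alone sets no gene apart. The size does more, since 0.565% of tested genes had a larger log2 fold change than Thbs1 and 4.57% a larger one than Smoc1. The median log2 fold change of the members was 3.59, against 0.00 over all tested genes. Since the members were chosen with earlier results of these data known, these ranks describe the set and do not test it. In sums over spots, more cells of a type and more RNA per cell cannot be told apart. Fibroblast markers were summed at 52.2 to 143 UMIs per 10000 in fibrotic spots at 7 and 21 dpi, against 1.03 to 1.22 in Col1a1-free spots. Col1a1, which defines both spot classes, is among the 6 markers, so part of this difference was set in advance. It gave 1222 of the 4422 marker UMIs in fibrotic spots of slice 1 at 7 dpi. In wild-type slice 2 at 21 dpi it gave 11834 of 33537. All 6 markers were read in fibrotic spots, and Col1a1 is at 0 in Col1a1-free spots by definition. Markers of microglia and macrophages stood at 39.2 to 60.1 against 4.0 to 21.2, and neuronal markers at 7.67 to 12.7 against 29.8 to 62.9. The part of these cell types in the members' levels was not tested.

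**Figure D1:**
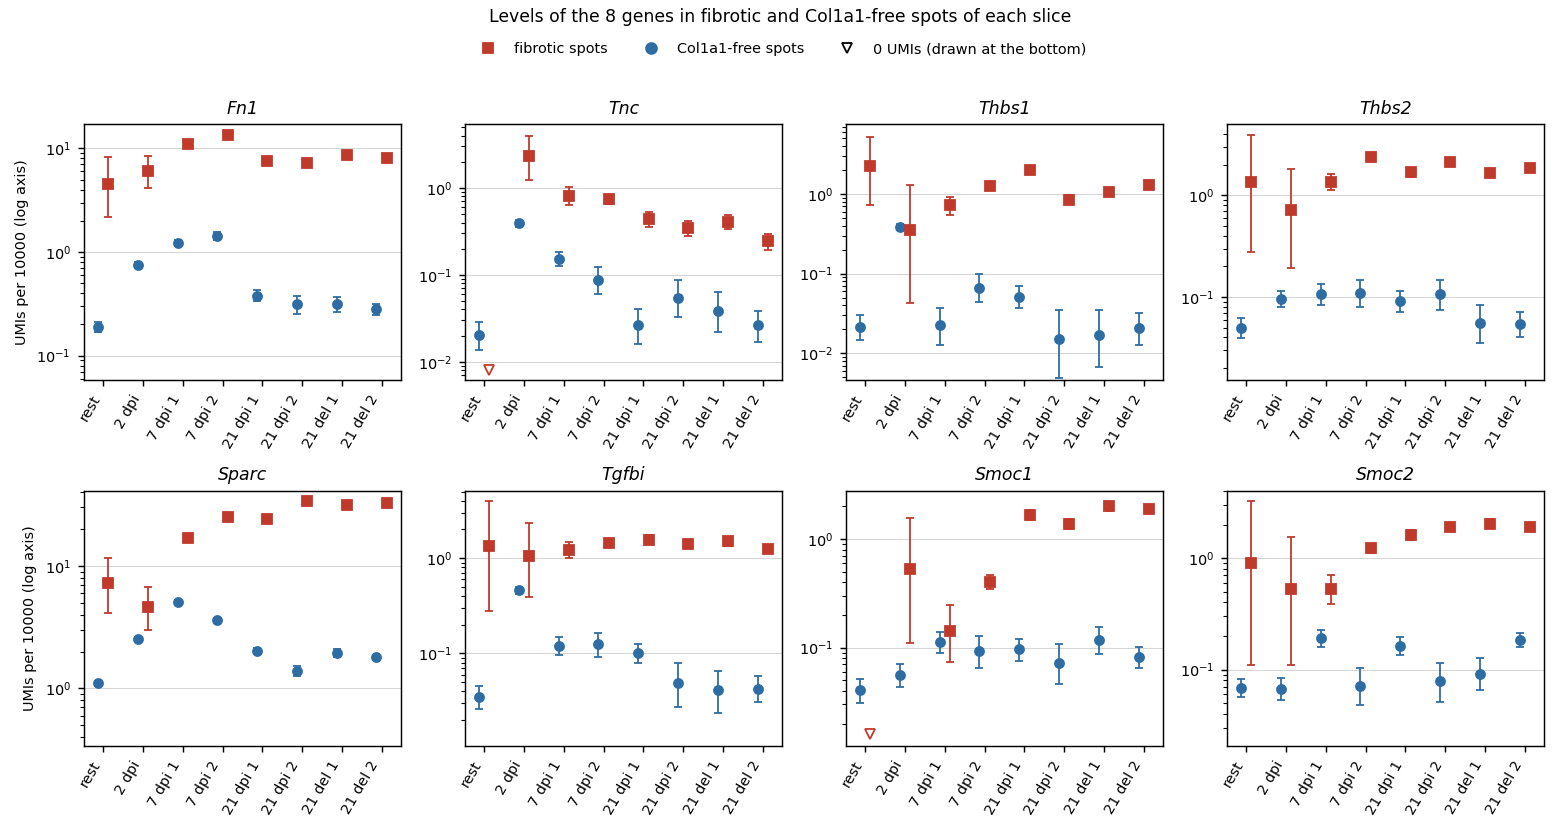
Level of each gene (UMIs per 10000, log axis) in fibrotic spots (red squares) and Col1a1-free spots (blue circles) of the 8 slices, with 95% counting intervals and open triangles for 0 UMIs. In all 6 slices at 7 and 21 dpi the fibrotic value is the higher, but for Smoc1 in slice 1 at 7 dpi the intervals overlap (0.0732 to 0.248 against 0.0893 to 0.140). Smoc1 in the fibrotic spots of 7 dpi (0.142 and 0.403) lies under that of every 21 dpi slice (1.38 to 1.99).

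Fn1 stood at 10.9 and 13.3 UMIs per 10000 in the fibrotic spots of slices 1 and 2 at 7 dpi. At 21 dpi it stood at 7.53 and 7.31 in wild-type slices and at 8.72 and 8.07 in deleter slices. Both 7 dpi slices lay above all 4 at 21 dpi. In Col1a1-free spots the levels were 1.23 and 1.43 at 7 dpi, 0.38 and 0.312 in wild-type and 0.313 and 0.279 in deleter slices at 21 dpi. The within-slice difference was 3.86 ± 0.09 (log2, SE, 4 slices, edgeR adjusted p = 1.57e-08). It averages unlike times, with log2 ratios of 3.16 and 3.22 in the slices at 7 dpi and 4.31 and 4.55 in wild-type slices at 21 dpi.

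Tgfbi encodes an adhesion protein induced by TGFβ that binds integrins and collagens. Its fibrotic levels lay between 1.23 and 1.56 in all 6 slices, with 1.23 and 1.43 at 7 dpi, 1.56 and 1.42 in wild-type and 1.5 and 1.23 in deleter slices at 21 dpi. Col1a1-free spots held 0.12 and 0.126 at 7 dpi and 0.041 to 0.1 at 21 dpi. The within-slice log2 difference was 3.91 ± 0.14 (edgeR adjusted p = 8.89e-08).

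Tnc encodes tenascin-C, a large hexameric glycoprotein that is scarce in most adult tissue and made during wound healing. Its fibrotic levels were 0.815 and 0.74 at 7 dpi, 0.434 and 0.343 in wild-type and 0.409 and 0.242 in deleter slices at 21 dpi. Levels in Col1a1-free spots were 0.153 and 0.0871 at 7 dpi and 0.0261 to 0.0545 at 21 dpi. The within-slice log2 difference was 3.13 ± 0.22 (edgeR adjusted p = 2.2e-06).

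Thrombospondins 1 and 2 are secreted glycoproteins that bind CD36 and CD47, restrain vessel growth and, for thrombospondin-1, activate latent TGFβ. Thbs1 had the largest within-slice difference of the 8 genes, at 5.03 ± 0.16 (log2, SE, 4 slices; edgeR adjusted p = 4.91e-08). Its fibrotic levels were uneven between slices, with 0.72 and 1.26 at 7 dpi, 2.02 and 0.848 in wild-type and 1.06 and 1.28 in deleter slices at 21 dpi. Col1a1-free spots held 0.0225 and 0.0666 at 7 dpi and 0.0151 to 0.0515 at 21 dpi, the lowest of these from 5 UMIs. Thbs2 in fibrotic spots stood at 1.37 and 2.36 at 7 dpi, 1.7 and 2.11 in wild-type and 1.67 and 1.85 in deleter slices at 21 dpi, so the times overlapped. In Col1a1-free spots of all 6 slices it stood at 0.0544 to 0.11, and the within-slice log2 difference was 4.21 ± 0.14 (edgeR adjusted p = 5.77e-08).

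Sparc encodes a collagen-binding protein that vessels and glia of the brain also make. Fibrotic spots held 17.1 and 24.9 UMIs per 10000 at 7 dpi, 24 and 33.8 in wild-type and 31.5 and 32.7 in deleter slices at 21 dpi. Col1a1-free spots held 5.1 and 3.59 at 7 dpi, and 1.4 to 2.04 at 21 dpi, so Sparc was read well above 0 outside fibrosis in all 6. The log2 difference was 3.23 ± 0.20 (edgeR adjusted p = 1.02e-06). It averages unlike times, with log2 ratios of 1.74 and 2.80 in the slices at 7 dpi and 3.56 and 4.59 in wild-type slices at 21 dpi.

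The SMOC proteins are secreted calcium-binding relatives of SPARC, of which SMOC1 is known as a modulator of BMP signalling. Smoc1 in fibrotic spots stood at 0.142 (12 UMIs) and 0.403 at 7 dpi, 1.67 and 1.38 in wild-type and 1.99 and 1.91 in deleter slices at 21 dpi. Both 7 dpi slices lay well below all 4 slices at 21 dpi. In Col1a1-free spots it stood at 0.0727 to 0.118 in all 6 slices. The ratio of fibrotic to Col1a1-free spots was 1.26 in slice 1 and 4.37 in slice 2 at 7 dpi, against 17.4 and 19 in wild-type slices at 21 dpi. Its averaged log2 difference of 2.89 ± 0.22 (edgeR adjusted p = 3.52e-06) therefore joins unlike times. Smoc2 in fibrotic spots stood at 0.531 and 1.22 at 7 dpi, 1.6 and 1.89 in wild-type and 2.04 and 1.91 in deleter slices at 21 dpi. The log2 difference of Smoc2 was 3.32 ± 0.34 (edgeR adjusted p = 2.27e-05), with ratios of 2.8 and 17 in the slices at 7 dpi. All 8 members were called under each of the 13 alternatives run for this comparison.

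Within the fibrotic spots, Fn1 and Sparc were also graded with Col1a1. In spots with at least 20 Col1a1 UMIs per 10000, Fn1 stood at 16.9 and 19.3 at 7 dpi and at 11.2 and 11.6 in wild-type slices at 21 dpi. In spots with 5 to under 10, the values were 8.41 and 4.71 at 7 dpi and 4.71 and 3.05 at 21 dpi. Sparc stood at 39.6 and 60.7 in the upper class at 21 dpi against 12.7 and 10.0 in the lower one, and at 27.2 and 36.1 against 12.4 and 9.93 at 7 dpi. Smoc1 in the upper class stood at 0.484 (7 UMIs in 21 spots) and 0.6 at 7 dpi. At 21 dpi it stood at 2.98 and 2.41 in wild-type and 3.53 and 3.26 in deleter slices. Smoc1 was thus also lower at 7 dpi among spots of high Col1a1. This class has no upper limit, so Col1a1 levels were not matched between the times. Tnc in the upper class stood at 1.52 and 1.0 at 7 dpi against 0.576 and 0.358 in wild-type slices at 21 dpi. In slice 2 at 21 dpi Tnc was nearly flat over the classes, with 0.334 in the lowest, 0.325 between and 0.358 in the upper.

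**Figure D2:**
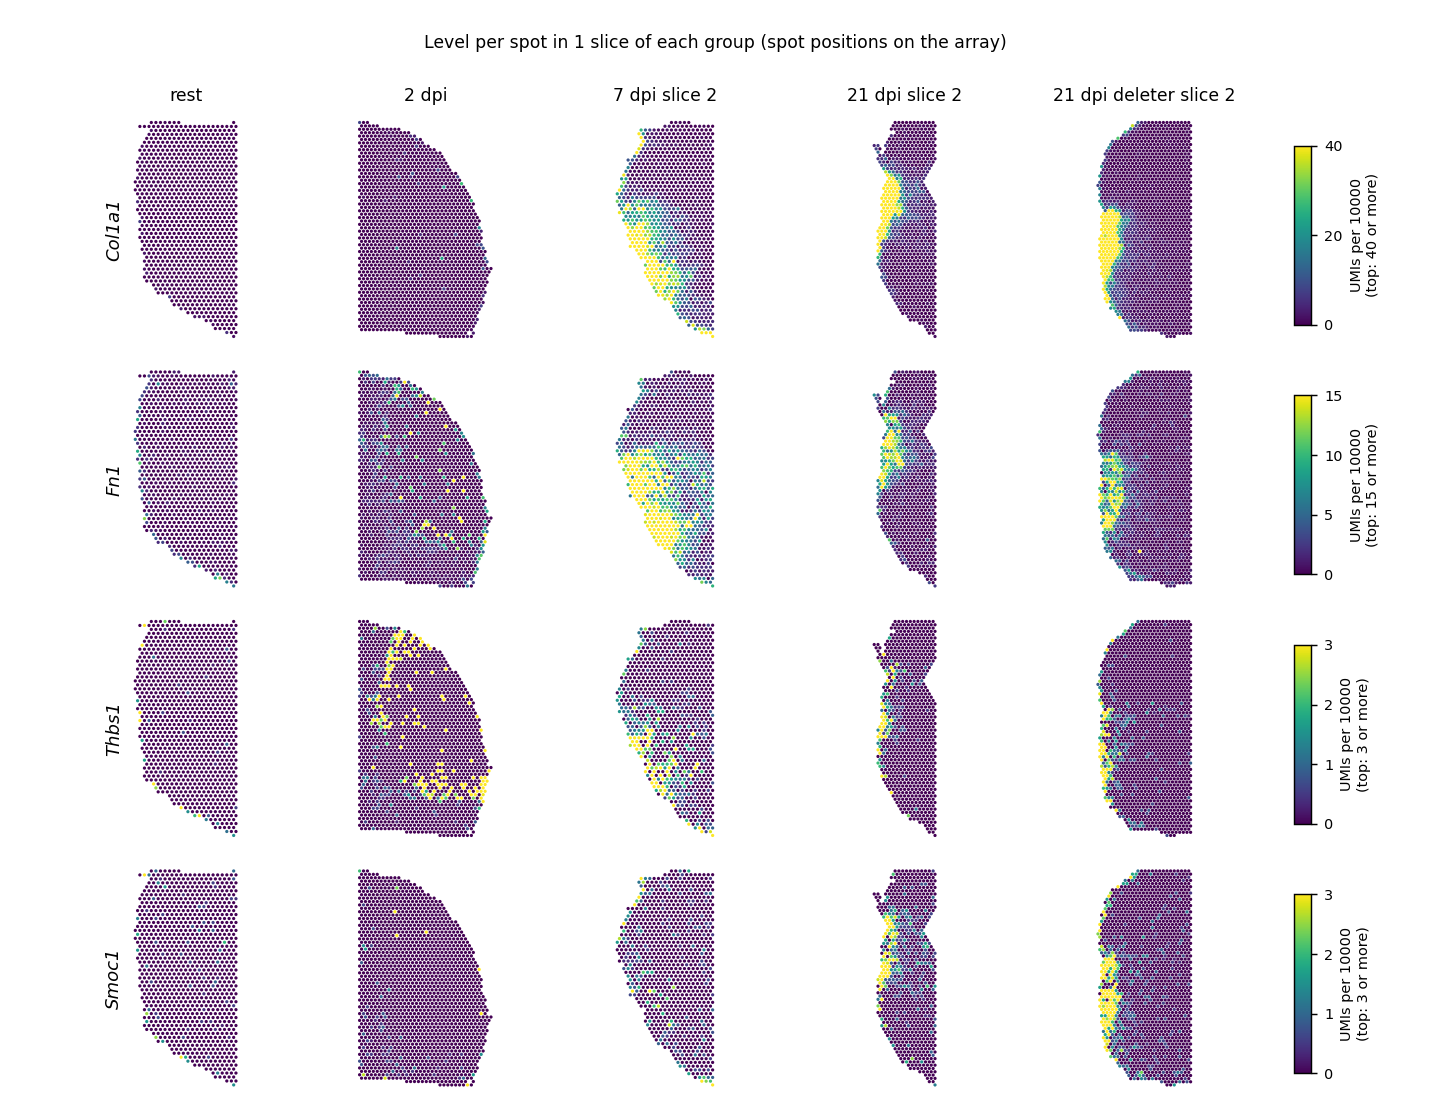
Spots of 1 slice of each group at their array positions, coloured by UMIs per 10000 of Col1a1, Fn1, Thbs1 and Smoc1 (colour scale shared along each row, top colour at the value named or above). At 7 and 21 dpi the 3 members follow the Col1a1-rich area, and Smoc1 is sparse at 7 dpi. At 2 dpi Thbs1 lies in bands where little Col1a1 was read. In spots of few UMIs there, Col1a1 can be missed and a lone UMI reaches the top colour.

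Away from the fibrotic spots Fn1 at 1 to 6 steps and Sparc at 2 to 6 steps were higher in both slices at 7 dpi than in all 4 at 21 dpi, while at 7 or more steps the times overlapped for both. Distance was counted in array steps, the spacing of neighbouring spots. All spots at a distance entered, also those with Col1a1 above 0 and under 5 UMIs per 10000. Such spots were 453 of 978 and 327 of 947 in slices 1 and 2 at 7 dpi, so these levels are not those of Col1a1-free tissue. Fn1 at 7 dpi stood at 7.03 and 2.81 at 1 step from the nearest fibrotic spot, 3.61 and 2.65 at 3 steps, 1.68 and 2.11 at 4 to 6 steps, and 0.726 and 0.358 at 7 or more. At 21 dpi Fn1 was down to 1.87 and 2.31 at 1 step and 0.741 and 0.66 at 3 steps in wild-type slices. Sparc at 7 dpi stood at 5.49 and 5.22 at 4 to 6 steps, against 2.91 and 2.15 at 21 dpi. At 1 step Sparc overlapped between the times, with 9.31 and 5.65 at 7 dpi against 7.64 and 6.9 at 21 dpi. Tnc differed between the slices at 21 dpi, with 0.198 at 1 step against 0.434 in fibrotic spots in slice 1 and 0.324 against 0.343 in slice 2, and in deleter slice 2 it was higher there (0.295 against 0.242). Smoc1 at 21 dpi stood at 0.337 and 0.516 at 1 step, against 1.67 and 1.38 in the fibrotic spots.

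**Figure D3:**
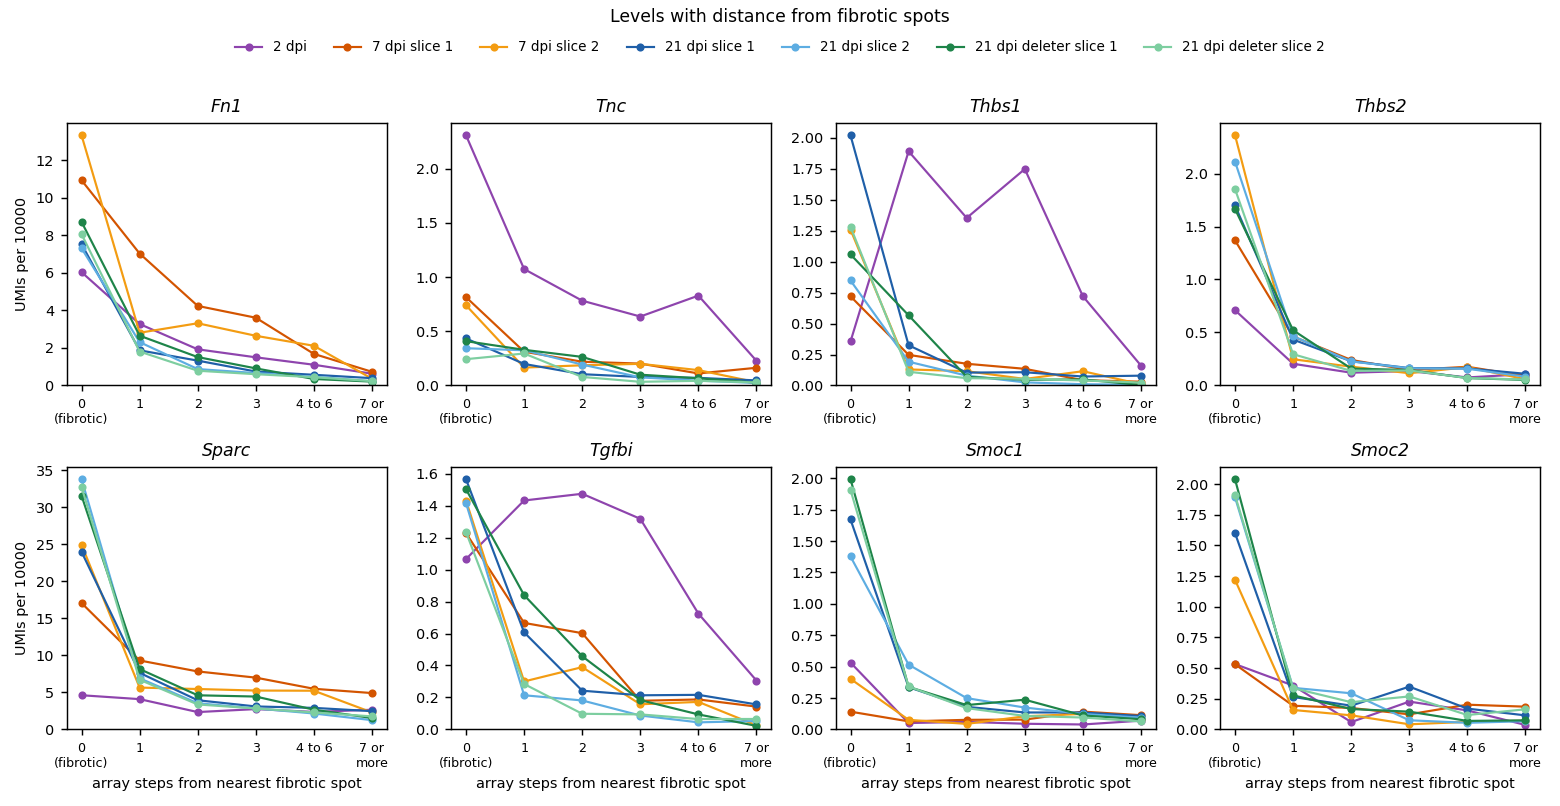
Level of each gene (UMIs per 10000) by array steps from the nearest fibrotic spot, a line for each slice other than rest, with classes of at least 20 spots. Fn1 at 7 dpi (orange) stays between 1.68 and 7.03 out to 6 steps. At 2 dpi (purple) Thbs1 is higher at 1 to 3 steps (1.35 to 1.89) than in the 26 fibrotic spots (0.355, from 2 UMIs).

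Between 7 and 21 dpi, fibrotic spots differed in 3 of the 8 genes, with Fn1 and Tnc higher at 7 dpi and Smoc1 higher at 21 dpi. Of 12912 tested genes 3.90% were called in either direction. Fn1 was 1.64-fold higher at 7 dpi (log2 difference 0.71 ± 0.16, edgeR adjusted p = 0.0359). Tnc was 1.98-fold higher (log2 difference 0.99 ± 0.19, edgeR adjusted p = 0.0212). Smoc1 was 4.8-fold lower (log2 difference -2.26 ± 0.30, edgeR adjusted p = 0.00323), a larger shift downwards than in all but 0.434% of tested genes. Smoc1 was called under all 11 alternatives, with a log2 difference of -3.40 without slice 2 at 7 dpi. The call of Fn1 was lost on leaving out slice 2 at 7 dpi (0.58, edgeR adjusted p = 0.101) and either slice at 21 dpi (0.74, 0.0919, for slice 1 and 0.68, 0.145, for slice 2). It was also lost in spots with at least 5000 UMIs (0.75, edgeR adjusted p = 0.0759) and at a minimum of 10 Col1a1 UMIs per 10000 (0.58, 0.0959). The call of Tnc was lost on leaving out either slice at 7 dpi (0.91, edgeR adjusted p = 0.0821, for slice 1 and 1.09, 0.0915, for slice 2) or slice 2 at 21 dpi (0.81, 0.0542), and by DESeq2 (0.99, 0.0688).

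For the other 5 genes the test missed the threshold, which does not show that they were alike. Smoc2 had a log2 difference of -0.91 ± 0.28 (edgeR adjusted p = 0.123). It was called lower at 7 dpi under 5 of the 11 alternatives, among them a minimum of 10 Col1a1 UMIs per 10000 (-1.10, edgeR adjusted p = 0.0358). With a slice left out, which keeps 1 slice in a group, the Smoc2 difference ran from -1.70 to -0.54. Thbs1 was called lower at 7 dpi under 1 of the 11 alternatives. It depended on which slice at 21 dpi was kept, with -0.97 without slice 2 and 0.29 without slice 1. The log2 differences of Sparc, Tgfbi and Thbs2 were -0.46 ± 0.21, -0.15 ± 0.17 and 0.00 ± 0.23 (edgeR adjusted p = 0.32, 0.723 and 1.00). Without the low-count filter Sparc (-0.47, edgeR adjusted p = 0.0261) and Smoc2 (-0.91, 0.000118) were called too. Leptomeningeal markers moved with time in the same spots, at 16.6 and 21.3 UMIs per 10000 at 7 dpi against 97.7 and 59.2 in wild-type slices at 21 dpi, with all 5 markers read. Astrocyte markers stood at 12.8 and 14.0 at 7 dpi against 23.6 and 25.2 in wild-type slices at 21 dpi. Fibroblast markers stood at 52.2 and 94.2 against 83.5 and 118, and Col1a1 itself at 14.4 and 30.6 against 21.3 and 41.5. Fibrotic spots thus differed in Col1a1 level between slices, also within a time. Oligodendrocyte markers stood at 104 in slice 2 against 22.4 in slice 1 at 21 dpi. The part of these cell types in the members' differences was not tested.

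In Col1a1-free spots Fn1 and Sparc were higher at 7 than at 21 dpi, and no member was called lower. Of 13905 tested genes 2.34% were called in either direction and 2.25% were called higher at 7 dpi. Fn1 was 3.82-fold higher (log2 difference 1.93 ± 0.17, edgeR adjusted p = 0.0092) and was called under all 11 alternatives. Sparc was 2.53-fold higher (1.34 ± 0.24, edgeR adjusted p = 0.0415). It missed the threshold without TMM scaling (1.33, 0.0521), in spots with at least 5000 UMIs (1.35, 0.0507), in spots at least 3 steps from fibrosis (1.33, 0.0645), and on leaving out slice 1 at 7 dpi (1.08, edgeR adjusted p = 0.185) or slice 2 at 21 dpi (1.11, 0.0624). Tnc had a log2 difference of 1.70 ± 0.45 that was not called (edgeR adjusted p = 0.131). It was called under 3 of the 11 alternatives, among them no low-count filter (1.70, edgeR adjusted p = 9.67e-05) and Col1a2 in place of Col1a1 (1.52, 0.0493). With a slice left out, which keeps 1 slice in a group, the Tnc difference ran from 1.15 to 2.22. Markers of microglia and macrophages were also higher in these spots at 7 dpi (18.5 and 21.2) than at 21 dpi (6.31 and 4.0). Astrocyte markers stood at 25.2 and 22.1 at 7 dpi against 16.4 and 13.5, and neuronal markers at 29.8 and 44.1 against 50.6 and 62.9. The part of these cell types was not tested.

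The ratio of fibrotic to Col1a1-free spots was itself larger at 21 than at 7 dpi for Fn1, Sparc and Smoc1. Of 14147 tested genes 4.01% were called for such a change, and 3.19% in this direction. Fn1 had ratios of 8.92 and 9.31 in the 7 dpi slices against 19.8 and 23.4 in those of 21 dpi. Its log2 change was -1.23 ± 0.16 (edgeR adjusted p = 0.00611). Fn1 fibrotic and Col1a1-free levels were both lower at 21 dpi, the latter by more. For Sparc the ratio was 3.34 and 6.94 against 11.8 and 24.2 (-1.80 ± 0.37, edgeR adjusted p = 0.0325), and for Smoc1 1.26 and 4.37 against 17.4 and 19 (-2.67 ± 0.43, 0.0121). The Fn1 call was lost on leaving out slice 1 (-1.20, edgeR adjusted p = 0.0562) or slice 2 (-1.21, 0.079) at 7 dpi. The Sparc call was lost on leaving out slice 1 (-1.27, edgeR adjusted p = 0.189) or slice 2 (-2.27, 0.0719) of 7 dpi or slice 2 of 21 dpi (-1.31, 0.0566), in spots with at least 5000 UMIs (-1.75, 0.0599) and with Col1a1-free spots at least 3 steps away (-1.78, 0.0522). Smoc1 was called under all 12 alternatives, with -3.77 on leaving out slice 2 at 7 dpi. The other 5 members had changes of -0.22 (Thbs2) to -1.03 (Smoc2) that were not called (edgeR adjusted p from 0.159 to 0.746), although Smoc2 was without the low-count filter (-1.0, 0.00606).

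**Figure D4:**
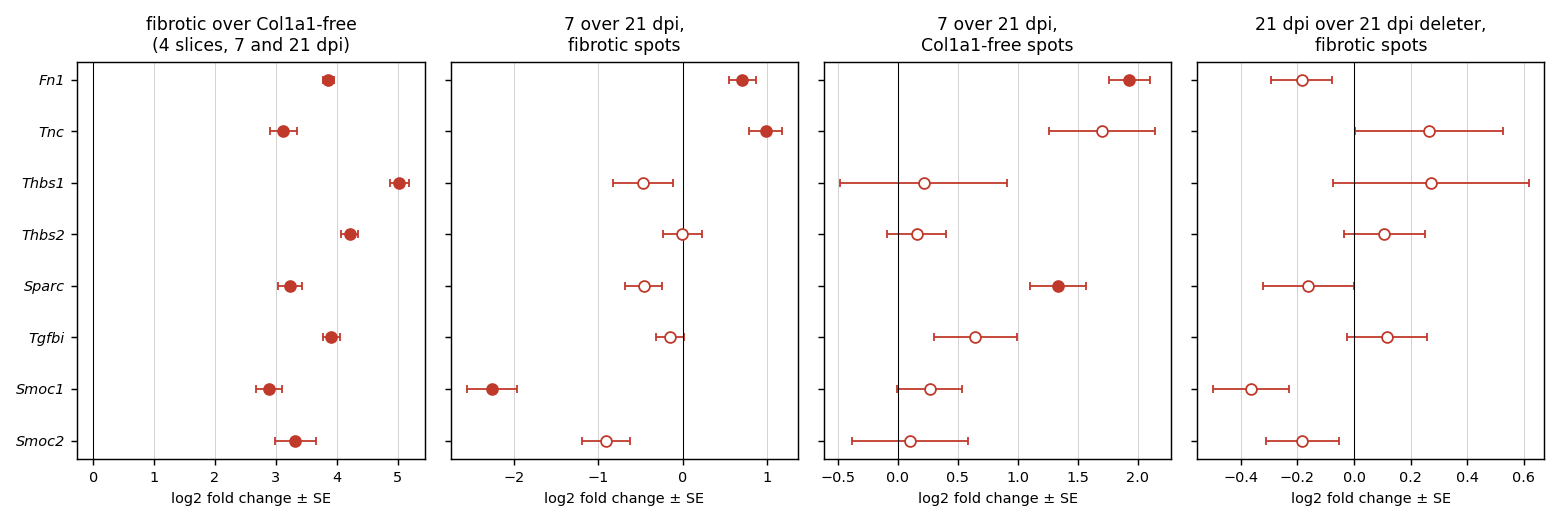
Fitted log2 fold change with its standard error for each gene in 4 comparisons (panels with their own scale), with filled points for an edgeR adjusted p under the threshold and open points otherwise. All 8 genes are filled for fibrotic over Col1a1-free spots, Fn1, Tnc and Smoc1 for time in fibrotic spots, Fn1 and Sparc for time in Col1a1-free spots, and none for genotype.

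At 2 dpi, before much Col1a1 was read, Tnc, Thbs1 and Tgfbi were higher in Col1a1-free spots than in those of any other slice. Col1a1-free spots had a median of 2482 UMIs at 2 dpi, against 11061 to 17361.5 in the other slices. A count of 0 Col1a1 UMIs therefore says less about fibrosis at 2 dpi. In Col1a1-free spots Thbs1 stood at 0.388 (470 UMIs) at 2 dpi against 0.0215 (34 UMIs) at rest and 0.0151 to 0.0666 in the 6 later slices. Tgfbi stood at 0.461 against 0.0347 at rest and 0.041 to 0.126 later, and Tnc at 0.393 against 0.0202 at rest and 0.0261 to 0.153 later. Fn1 stood at 0.751 against 0.191 at rest, below both slices at 7 dpi. Thbs2, Smoc1 and Smoc2 stood at 0.0958, 0.0562 and 0.0669, within the range of the later slices or below it. In the 26 fibrotic spots Fn1 stood at 6.04 (34 UMIs), Tnc at 2.31 (13 UMIs) and Thbs1 at 0.355 (2 UMIs). In 19 spots with 2 to under 5 Col1a1 UMIs per 10000 Thbs1 stood at 1.84 (22 UMIs). In 40 spots with Col1a1 above 0 and under 2 it stood at 0.199 (16 UMIs). With 1 slice at each of these times there is no test.

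Position within the slice at 2 dpi separated the members further. Its spots with fewer than 2500 UMIs formed a connected area of 831 of the 1726 spots, with a median of 1077 UMIs against 13614 outside, which held 22 of the 26 fibrotic spots. Thbs1 stood at 1.94, 1.81 and 2.01 at 3, 2 and 1 steps inside the border of this area and at 2.08 and 1.77 at 1 and 2 steps outside, then at 0.154 at 3 steps outside. Deeper inside, at 4 steps or more, it stood at 0.512. Tnc was placed further out, with 0.194 and 0.722 at 2 and 1 steps inside, 2.03 at 1 step outside, and 1.03 and 1.07 at 2 and 3 steps. Its 95% counting interval at 1 step outside (1.69 to 2.42) did not overlap that at 1 step inside (0.434 to 1.13). These intervals cover counting error in 1 slice and no spread between spots or mice. Tgfbi was spread like Thbs1, with 1.86 at 1 step inside, 1.9 at 1 step outside and 0.483 at 3 steps outside. Fn1 peaked at 2.44 at 1 step outside and was down to 0.459 at 7 steps or more. Markers of microglia and macrophages were highest at the same step (16 UMIs per 10000, against 5.12 deep inside and 6.75 at 7 steps or more outside). Fibroblast markers were highest there too (3.72, against 1.6 at 1 step inside and 1.16 at 7 steps or more outside). Astrocyte markers were lowest near this step (7.79 at 2 steps outside against 25.5 at 7 or more). The part of these cell types in the members' levels here was not tested. With the area drawn at 5000 UMIs, an alternative chosen after seeing the data, Thbs1 stood at 2.97 and 1.67 at 1 step inside and outside and Tnc at 1.0 and 2.26. Fn1 was then highest at 2 steps inside (2.72, against 2.05 at 1 step outside). Markers of microglia and macrophages were highest at 1 step inside (17.7, against 11.1 at 1 step outside) and fibroblast markers at 1 step outside (3.54). The step that Fn1 shared with these markers thus depended on where the border was drawn.

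**Figure D5:**
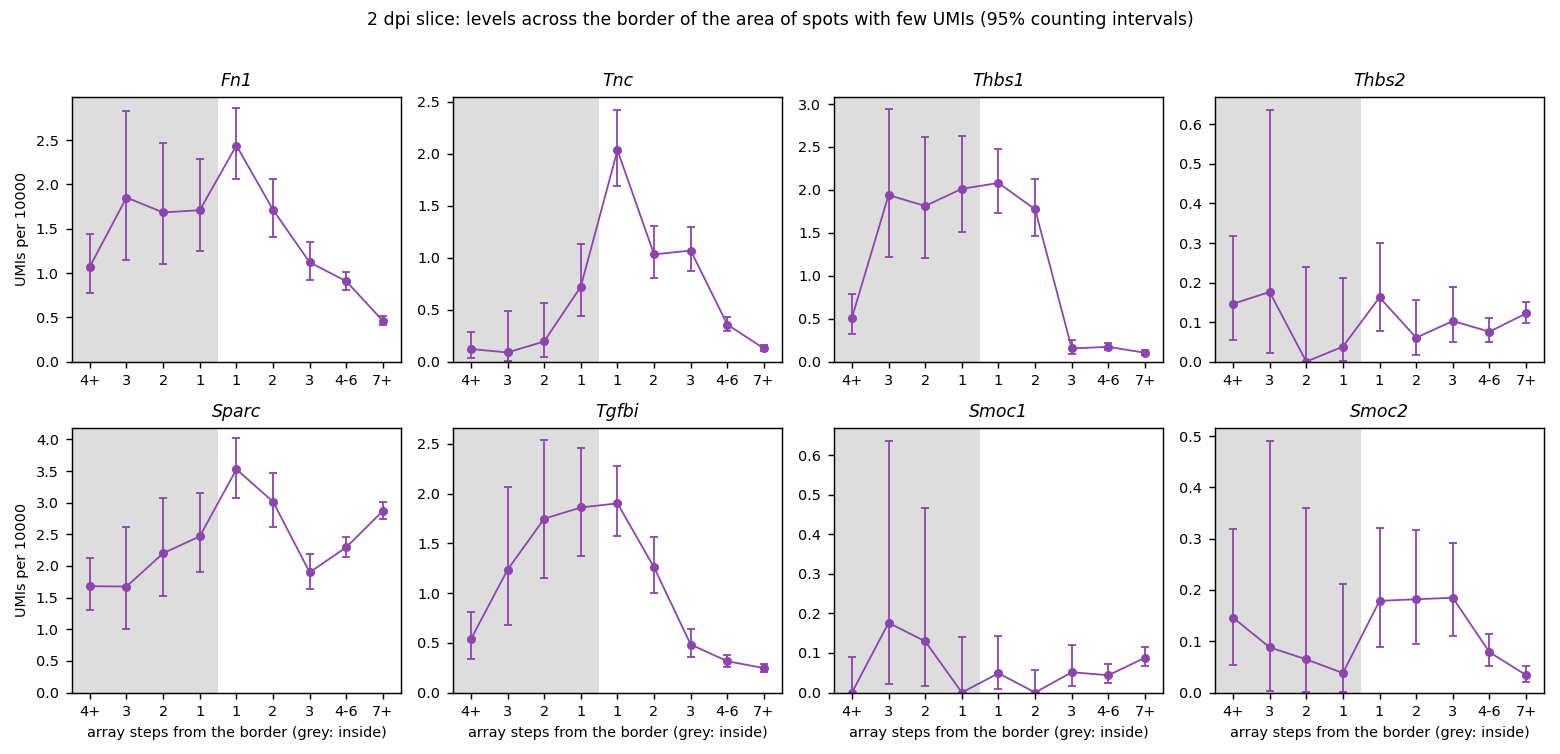
Levels (UMIs per 10000, 95% counting intervals) of the 8 genes in the slice at 2 dpi by array steps inside (grey) and outside the border of the area of spots with fewer than 2500 UMIs. Thbs1 lies at 1.77 to 2.08 from 3 steps inside to 2 steps outside, Tnc has its highest value (2.03) at 1 step outside, and Smoc1 and Thbs2 show no such peak.

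At rest, where 3 spots passed as fibrotic, all at the tissue edge, the members were read at low levels with more along the rim. In Col1a1-free spots Fn1 stood at 0.623 at the edge (88 UMIs in 115 spots) and 0.148 in the interior (214 UMIs in 858 spots), a ratio of 4.2. Thbs1 had an edge over interior ratio of 8.07 (15 against 19 UMIs), Tnc of 4.0 (9 against 23 UMIs), and Sparc of 1.4. At 2 dpi the ratios were 0.85 for Fn1, 0.693 for Thbs1 and 0.424 for Tnc, while Tgfbi (0.508), Smoc2 (0.55) and Smoc1 (0.959) were also below 1 and Thbs2 (1.85) and Sparc (1.05) above it. In the 3 fibrotic spots of the rest slice Tnc and Smoc1 had 0 UMIs of 22228, which allows up to 1.35 per 10000 when a count of 0 is taken to allow 3 counts, and leptomeningeal markers stood at 372.

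Wild-type and deleter mice at 21 dpi were compared in fibrotic spots to ask whether the genotype changed the members. None of the 8 was called, and of 12945 tested genes 0.00772% were (1 gene by edgeR, 8 by DESeq2, 899 at an unadjusted p under the threshold of 0.05). The log2 differences, wild type over deleter, ran from -0.36 ± 0.13 for Smoc1 (edgeR adjusted p = 0.715) to 0.27 ± 0.35 for Thbs1 (0.894). For Fn1 the difference was -0.19 ± 0.11 (edgeR adjusted p = 0.753), with wild-type slices at 7.53 and 7.31 and deleter slices at 8.72 and 8.07. Genotype coincides with the capture area, and these 2 cannot be told apart.

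Receptors and binding partners of fibronectin were higher in the same fibrotic spots. Of 14 listed genes (integrin subunits, syndecans, transglutaminase 2 and fibulins), 13 were called higher within slices and 0 lower, with a median log2 difference of 2.16, against 31.2% of all tested genes called higher, 30.9% called lower and a median of 0.00. The largest were those of Fbln1 (4.12 ± 0.12, edgeR adjusted p = 4.56e-08), a fibulin that binds fibronectin, and Sdc1 (4.0 ± 0.22, 5.58e-07), a heparan sulphate co-receptor. With time the fibulins went apart in fibrotic spots. Fbln2 stood at 1.13 and 1.09 at 7 dpi and 0.197 and 0.158 at 21 dpi (2.65 ± 0.20, edgeR adjusted p = 0.000117), while Fbln1 stood at 1.23 and 1.72 against 3.92 and 2.38 (-1.07 ± 0.25, 0.0398). Sdc4, a syndecan of focal adhesions, was also lower at 7 dpi (-1.22 ± 0.20, edgeR adjusted p = 0.00943). The fibrotic to Col1a1-free ratio was larger at 7 dpi for 1 of the 14 (0.820% of all tested genes), Fbln2 (2.33 ± 0.32, edgeR adjusted p = 0.00708). It was larger at 21 dpi for 3 of the 14 (3.19% of all tested genes), led by Sdc4 (-2.11 ± 0.21, edgeR adjusted p = 0.0024) and Itgb5 (-1.51 ± 0.26, 0.0174). In Col1a1-free spots Itgb5 was the 1 gene of the 14 called higher at 7 dpi (1.57 ± 0.24, edgeR adjusted p = 0.0258), against 2.25% of all tested genes.

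Of 5 receptors of thrombospondins and SPARC, 3 were called higher in fibrotic spots (31.2% of all tested genes) and 1 lower (30.9%). The 3 were led by Cd36 (4.40 ± 0.26, edgeR adjusted p = 7.51e-07), a scavenger receptor of thrombospondin-1, and Stab1 (3.08 ± 0.13, 1.39e-07), a macrophage receptor that takes up SPARC. The calcium channel subunit Cacna2d1, a neuronal thrombospondin receptor, was lower (-1.14 ± 0.11, edgeR adjusted p = 1.84e-05). Cd36 and Stab1 were also higher in Col1a1-free spots at 7 than at 21 dpi (3.95 ± 0.67, edgeR adjusted p = 0.0371, and 2.23 ± 0.17, 0.00918). Of all tested genes 2.25% were called higher there. Between fibrotic spots of the times 0 of the 5 were called, against 3.90% of all tested genes. The ratio of fibrotic to Col1a1-free spots was larger at 21 dpi for 3 of the 5 (3.19% of all tested genes), led by Cd36 (-3.73 ± 0.57, edgeR adjusted p = 0.00982) and Stab1 (-1.74 ± 0.25, 0.00834). Of the tenascin list 3 of 4 genes were tested and 2 were lower in fibrotic spots (30.9% of all tested genes were), Ptprz1 (-0.44 ± 0.09, edgeR adjusted p = 0.00236), a receptor phosphatase of glia that binds tenascins, and Tnr (-0.29 ± 0.11, 0.0494), the tenascin of neural matrix. No gene of that list was called in a comparison of times, where 2.34% to 4.01% of all tested genes were.

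Among 15 other matricellular genes 9 were called higher in fibrotic spots and 4 lower, against 31.2% and 30.9% of all tested genes, so that the share called lower was near that of all genes. Comp (5.25 ± 0.34), a thrombospondin of cartilage and tendon, and Postn (5.17 ± 0.23, edgeR adjusted p = 2.06e-07), periostin, rose most. Comp rested on few UMIs, with 1, 4, 3 and 1 in the Col1a1-free spots of the 4 slices and 1 in the fibrotic spots of slice 1 at 7 dpi. It passed the low-count filter only through its fibrotic sums. Of the 15 genes, 12 passed the filter in Col1a1-free spots alone, so Comp was not the only gene to pass through fibrotic sums. Only a rise was open to such genes, and a call of theirs among the 9 is not a test. Spock1 (-2.25 ± 0.10, edgeR adjusted p = 2.14e-07) and Spock3 (-1.92 ± 0.15, 4.22e-06), proteoglycans of the SPARC family made by neurons, fell most. In fibrotic spots Spp1, which encodes osteopontin, stood at 140 and 140 UMIs per 10000 at 7 dpi and 28 and 29.2 at 21 dpi (2.29 ± 0.16, edgeR adjusted p = 5.88e-05). Ccn4 was higher at 7 dpi too (2.20 ± 0.36, edgeR adjusted p = 0.00916), and Ccn5 was lower (-2.42 ± 0.40, 0.00929). In Col1a1-free spots Spp1 was the 1 of 12 tested genes called, higher at 7 dpi (4.06 ± 0.25, edgeR adjusted p = 0.00444), against 2.25% of all tested genes. The ratio was larger at 7 dpi for Ccn4 (2.88 ± 0.65, edgeR adjusted p = 0.0432) and at 21 dpi for Spp1 (-1.76 ± 0.20, 0.00351). No gene of the 4 lists was called between wild-type and deleter slices.

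The genes whose levels ran most like those of a member were found over 23 sums of spots by slice and Col1a1 class, among 10583 genes, by Pearson's r of log2 levels. These sums share slices, so r is a description. Fn1 was most like Cmtm7 (r = 0.99), Emp3 and Itgb1, the latter the shared chain of fibronectin-binding integrins. Thbs2 was most like Sdc1, Fkbp10 and Emilin1, and Smoc2 most like Ctsk, Sh3pxd2a and Ltbp2. Smoc1 was most like Scara3 (r = 0.988), Sfrp4 and Slc38a2. Tnc was most like Fam111a, G3bp1 and Tubb6, Thbs1 most like Pcolce, Ahnak and Ifitm2, Sparc most like Ms4a7, Tgfbr2 and Tap2, and Tgfbi most like S100a11, Serp1 and Il13ra1. Among the members themselves r was highest for Thbs2 and Smoc2 (0.949) and lowest for Tnc and Smoc1 (0.472).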

How the data were processed

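Visium libraries of 4 capture areas (polyA RNA) were used. Per the labels the authors ran Space Ranger 2.0.0 on mm10 and deposited UMI counts for every gene in each spot, not normalized. The deposited array positions are other numbers and served to find slices. Connected tissue spots gave 2 pieces in each area, each taken as 1 slice. Spot barcodes mark array positions, and 1293 of them occur in all 4 areas. Spots with at least 5 Col1a1 UMIs per 10000 (fibrotic) and spots with 0 were summed per slice. The summed counts were tested with edgeR 4.0.16 in R 4.3.3 (library scaling by TMM, low counts removed by filterByExpr, the quasi-likelihood test, and p adjusted over all genes tested by Benjamini-Hochberg at 0.05), with the slice as a block where both spot classes entered. SE is the log2 fold change over the square root of F. The edgeR step was run on simulated counts with a dispersion of 0.05 and 200 changed genes. Far more genes were called within slices, so that run does not measure the error rates of that comparison. P-values rest on 2 slices a group, each from its own mouse per the methods. Where a slice was left out, its group kept only 1 slice. Intervals are exact Poisson at the 95% level and cover counting error only. Alternatives were DESeq2 1.42.0, no low-count filter, no TMM, spots of at least 5000 UMIs, a minimum of 10, Col1a2 in place of Col1a1, Col1a1-free spots at least 3 steps away, all 6 injured slices in 1 fit, no slice block, and each slice left out.

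Members, lists and tests were chosen with earlier results of these data known. Named genes are the members, of each list at most 2 called genes with the largest rise and 2 with the largest fall per comparison, and 3 genes most like each member (pseudocount 0.1, mean of at least 0.1 UMIs per 10000, sums of at least 20 spots). Positions are from GENCODE M21, matched by identifier. Doublets were not called, since spots hold several cells. Descriptive values used Python 3.11 with pandas 2.3.3 and SciPy 1.17.1.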

Additional observations from a re-analysis of the deposited data

Results flagged for a closer look

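For 3 members the difference between fibrotic and Col1a1-free spots was not the same at 7 and at 21 dpi by a test of that change itself. As log2, 7 dpi minus 21 dpi, it was -1.23 for Fn1, -1.80 for Sparc and -2.67 for Smoc1 (edgeR, 2 slices at each time). In each case all ratios at 21 dpi lay above both at 7 dpi. The 3 were picked by a test on these same ratios, and how many of all tested genes separate this way was not counted. The separation therefore adds no support. Time coincides with the capture area, and the cause was not tested.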

How the results depend on the processing

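The 8 calls of fibrotic over Col1a1-free spots held under all 13 alternatives. Counts of called genes moved more. For the change of this ratio between times they were 567, with 348 by DESeq2, 1433 without the low-count filter, 259 in spots of at least 5000 UMIs and 250 without the slice block, and 60 to 776 with a slice left out, where 1 to 3 members were called. For time in fibrotic spots they were 503, with 304 by DESeq2, 1123 (5 members) without the filter, 320 in spots of at least 5000 UMIs and 236 to 863 with a slice left out. For time in Col1a1-free spots they were 326, with 1525 without the filter, 527 by Col1a2, 203 away from fibrosis, and 45 to 382 with a slice left out (1 to 2 members). There 1 member was called in place of 2 without TMM, in spots of at least 5000 UMIs and away from fibrosis. For the genotype 1 gene was called, with 8 by DESeq2, 270 without the filter, 0 by Col1a2, 4 at a minimum of 10, 3 in 1 fit over 6 slices, and 1 to 155 with a slice left out. The cause of these shifts was not tested.

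Signs turned for members that were not called with all slices and the main settings. With a slice left out, log2 values for the ratio's change ran from -1.32 to 0.091 (Tnc), -0.53 to 0.16 (Thbs2) and -2.25 to 0.30 (Smoc2). For time in fibrotic spots they ran from -0.97 to 0.29 (Thbs1) and -0.46 to 0.29 (Thbs2), and Thbs2 was 0.0050 without TMM, 0.024 at 5000 UMIs, 0.0071 by Col1a2 and 0.034 over 6 slices. In Col1a1-free spots they ran from -0.71 to 1.45 (Thbs1) and -0.79 to 0.76 (Smoc2), and Smoc1 was -0.044 by Col1a2. For the genotype they ran from -0.088 to 0.66 (Tnc), -0.48 to 0.78 (Thbs1), -0.061 to 0.25 (Thbs2), -0.43 to 0.063 (Sparc) and -0.021 to 0.26 (Tgfbi), and by Col1a2 Fn1 was 0.15, Sparc 0.19, Smoc1 0.0029 and Smoc2 0.23. Spot classes of a slice were paired through the slice block. Between times and between genotypes no paired analysis was possible because each mouse gave 1 slice and the replicate numbers pair none of them.

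Few UMIs limit Smoc1 at 7 dpi (12 in slice 1) and Thbs1 outside fibrosis at 21 dpi (5 in slice 2). Rest and 2 dpi rest on 1 slice each.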

Other observations

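Most UMIs of the members came from fibrotic spots where these covered much of a slice. In slice 2 at 7 dpi fibrotic spots held 32.5% of all UMIs and 88.9% of those of Thbs1, 88.9% of Thbs2, 77.6% of Fn1 and 68.3% of Smoc1. In slice 1 at 7 dpi, with 5.64% of all UMIs in fibrotic spots, the shares were 40.4% for Thbs1, 26.8% for Fn1, 15.3% for Sparc and 6.98% for Smoc1. Wild-type slice 1 at 21 dpi had 12.8% of all UMIs in fibrotic spots, and the shares ran from 44.9% (Tnc) to 73.1% (Thbs1). In deleter slice 2, with 15.3% of all UMIs there, they ran from 42.1% (Tnc) to 85.3% (Thbs1). At 2 dpi fibrotic spots held 0.43% of all UMIs, 3.05% of Fn1 and 0.392% of Thbs1.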
